A study of Mus musculus with 4 samples.

Results

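Scavenger receptor genes were examined for PPARγ binding in mouse alveolar macrophages (AMs). The 10 genes were Cd36, Marco, Msr1, Scarb1, Scarb2, Olr1, Cd68, Cxcl16, Stab1 and Scara5, chosen by name and whether or not a binding region lay near them, out of 20923 protein-coding genes. Peaks of the 2 libraries that overlapped by at least 1 bp were merged, and the 20233 merged regions with peaks of both libraries were kept. Each was given to the gene whose curated RefSeq transcription start site (TSS) was nearest to its centre (mm10), which put 47 regions at these genes.

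Binding was profiled by HT-ChIPmentation, in which a transposase tags immunoprecipitated chromatin on the beads. AMs of WT C57BL/6J mice aged 9 weeks were collected by bronchoalveolar lavage, sorted by flow cytometry and precipitated with an anti-PPARγ antibody. The 2 ChIP libraries, numbered 1 and 2 as in the labels, formed 1 group without genetic change or treatment, so no contrast between conditions was available and the values below are descriptions. The 2 input libraries served as controls for peak calling and were not analysed here. The labels do not tell whether separate animals gave the libraries, and their differences may be technical. Library 1 had 83787 peaks and library 2 had 28535. The lists hold no read counts and no expression values, so depth cannot be read from them. The identity of the sorted cells could not be checked against marker genes.

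Scavenger receptors are surface or lysosomal proteins that bind modified lipoproteins, lipids, bacteria, dead cells and dust, and many of them deliver their cargo to lysosomes. PPARγ is a nuclear receptor activated by lipids that pairs with RXR on DNA. In AMs, which clear surfactant lipid, it is required for normal development of the cells. Cd36 is a classical PPARγ target gene in macrophages, where uptake of oxidized lipoprotein supplies ligands of the receptor.

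Of the 10 genes, 8 had at least 1 region. The same held for 31.6% of all protein-coding genes. With at least 5 regions there were 4 genes (Cd36, Marco, Scarb2 and Olr1), against 5.78% of all genes. A TSS lay inside a region at 5 genes (Cd36, Msr1, Scarb2, Olr1 and Cd68), against 15.7% of all genes. Stab1 and Scara5 had no region. In single libraries, 9 of the 10 genes were nearest to a peak of library 1 (60.6% of all genes) and 8 to a peak of library 2 (34.9% of all genes). Cd36 held 19 of the 47 regions, followed by Marco with 8, Scarb2 with 7, Olr1 with 5, Msr1 and Scarb1 with 3 each, and Cd68 and Cxcl16 with 1 each.

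The libraries overlapped at these genes a little more often than over all peaks, a difference that was not tested. Of 158 library 1 peaks nearest to the 10 genes, 56 overlapped a peak of library 2 (35.4%, against 26.9% of all library 1 peaks). Of 69 library 2 peaks, 62 overlapped a peak of library 1 (89.9%, against 82.9%). The fold enrichment, the authors' ratio of ChIP over input at a peak, had a median of 4.44 in library 1 and 5.07 in library 2 over the peaks of these genes, the same values as over all peaks of each library. Peaks seen in library 1 alone were weaker, with a median fold of 4.15 over 102 peaks against 5.92 over the 56 shared ones. Library 2 had 7 such peaks, with a median fold of 4.52 against 5.35 over its 62 shared ones.

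**Figure D1:**
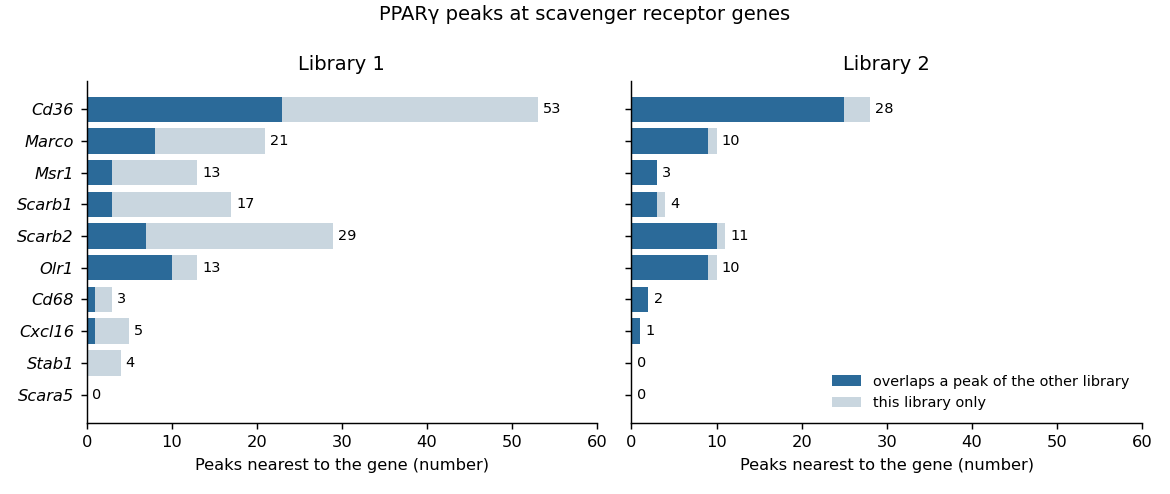
Number of PPARγ peaks nearest to each gene (horizontal axis) in library 1 and library 2, divided into peaks that overlap a peak of the other library (dark) and peaks of that library only (light). Cd36 has 53 and 28 peaks, Stab1 has 4 in library 1 only and Scara5 has none.

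Class B receptors came first. Cd36 encodes a transporter of long-chain fatty acids and receptor for oxidized lipoproteins (gene ID 12491, chr5:17781690-17888959, minus strand). Its 19 regions, a number that 0.378% of all genes reached, lay within 70.5 kb and covered 31.0% of it. All of them were centred in introns. Genes differ in how much genome lies nearest to their TSS, and that territory was 220 kb for Cd36 (median over all genes 48.9 kb). Per 100 kb of territory Cd36 had 8.62 regions, against 0.768 over the genome, a density that 6.79% of genes reached. By density Cd36 was thus less extreme than by count.

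The strongest Cd36 region, the 10th from the 5′ end of the gene, was chr5:17833280-17836643. Its fold enrichment was 16.6 in library 1 and 14.3 in library 2. These values were higher than or equal to those of 97.2% and 99.1% of all regions in the respective library, and by the lower of both percentiles the region ranked 271 of 20233. Curated transcripts of Cd36 start at 3 sites, and the region spanned the one farthest downstream, at position 17835896. Its 3364 bp held a single peak of each library, from 17833280 to 17836643 in library 1 and from 17833314 to 17836405 in library 2, so that each peak covered the TSS. The summits, however, stood 1769 bp apart, in an intron 1893 bp from that TSS in library 1 and 124 bp from it, in exon 1 of the transcripts that start there, in library 2. The maxima of the libraries were thus at different places within peaks of nearly the same extent.

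The other Cd36 regions were grouped along the gene. In the long intron after the TSS farthest upstream (17888959), region 2 (chr5:17878805-17880907) had folds of 15.1 and 8.98 and region 3 (chr5:17876560-17878384) had 9.84 and 13.2. Ahead of the middle TSS (17849792), region 4 (chr5:17856787-17858124) had 8.88 and 12.1, and region 5 (chr5:17854296-17855674) had 12.4 and 9.26. Neither of these TSS was inside a region, since the nearest region edges were 3.20 kb and 2.67 kb away. Each library had a peak nearer to the middle TSS that overlapped no peak of the other library. Their centres were 0.621 kb away in library 1 (fold 4.27) and 1.55 kb away in library 2 (fold 5.91). The most densely marked part was the 11.6 kb around the downstream TSS, where regions 7 to 12 covered 94.8% of the sequence. Among them was region 7, with 4695 bp the widest at Cd36, whose fold was 5.72 in library 1 and 11.5 in library 2. Of its neighbours within 3 kb of this TSS, region 8 (chr5:17837569-17838422) had folds of 5.04 and 4.24, region 9 (chr5:17836654-17837400) 3.43 and 5.07, and region 11 (chr5:17832707-17833152) 4.08 and 5.07. Region 6 (chr5:17852457-17852718), the one nearest to the middle TSS, had 2.96 and 4.24. The regions beside these TSS were thus weaker than region 10. The downstream TSS was the nearest one for 13 regions, and the other 2 TSS for 3 each.

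Many Cd36 regions were weak. Folds ran from 2.88 to 16.6 (median 5.04) in library 1 and from 3.68 to 14.3 (median 5.07) in library 2. Regions 2 and 10 were at or above the 90th percentile in both libraries, as were 5.83% of all regions. Below the median of all regions in both libraries were 11 of the 19, against 35.95% of all regions. Regions 13 to 19, in introns in the 3′ direction, had folds of at most 8.59 and 5.35. The study displays Cd36 on these samples, so its binding here is not independent evidence.

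Scarb2 encodes LIMP-2, a lysosomal membrane protein that carries β-glucocerebrosidase to lysosomes (gene ID 12492, chr5:92441311-92505657, minus strand). It had 7 regions, 5 in intron 1 and 2 upstream in intergenic sequence, and 11.7 per 100 kb of its 59.9 kb territory. Region 3 (chr5:92502670-92506815) spanned the TSS over 4146 bp, with folds of 18.1 and 14.6. It lay at percentiles 98.2 and 99.2 and ranked 177, ahead of every Cd36 region. Its summits were 50 bp apart, 1225 and 1175 bp into the gene. Further regions with folds above 10 in library 1 stood 19.3 kb upstream (region 1, 13.3 and 7.03), 3.48 kb upstream (region 2, 11.8 and 8.15) and 18.6 kb downstream (region 7, 13.3 and 6.47). The other 3 had folds from 4.15 to 6.81 in library 1 and from 3.60 to 7.03 in library 2. A region inside the 3′ end of the Scarb2 transcribed span (chr5:92441595-92442190, folds 5.33 and 5.91) was nearer to Nup54. The sequence around the library 2 summit of region 3, chr5:92504382-92504582 on the plus strand, is shown because it is the strongest summit at Scarb2 and held none of the motifs searched below.

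Scarb2 region 3 summit: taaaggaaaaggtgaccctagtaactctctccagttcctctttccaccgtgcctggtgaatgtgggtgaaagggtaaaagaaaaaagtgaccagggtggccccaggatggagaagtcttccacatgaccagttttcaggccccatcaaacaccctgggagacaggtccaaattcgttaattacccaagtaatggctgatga

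Scarb1 encodes SR-BI, the receptor for high-density lipoprotein (gene ID 20778, chr5:125277087-125341094, minus strand). Its 3 regions all lay outside the transcribed span. The best ranked, at 6626, was 17.3 kb upstream (chr5:125358187-125358596) with folds of 6.81 and 5.63. Region 2, 7.20 kb upstream (chr5:125348146-125348434), had 5.04 and 7.11. Region 3, 67.3 kb downstream and past the 3′ end (chr5:125273424-125274132), had 11.0 and 4.98. At the Scarb1 TSS the libraries differed, with 3 peaks within 1 kb in library 1 (folds 3.55, 5.04 and 4.56) and none in library 2, whose nearest peak was 7.05 kb away. When noncoding and predicted genes were also allowed as the nearest gene, regions 1 and 3 went to Gm40323 and Gm32585.

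**Figure D2:**
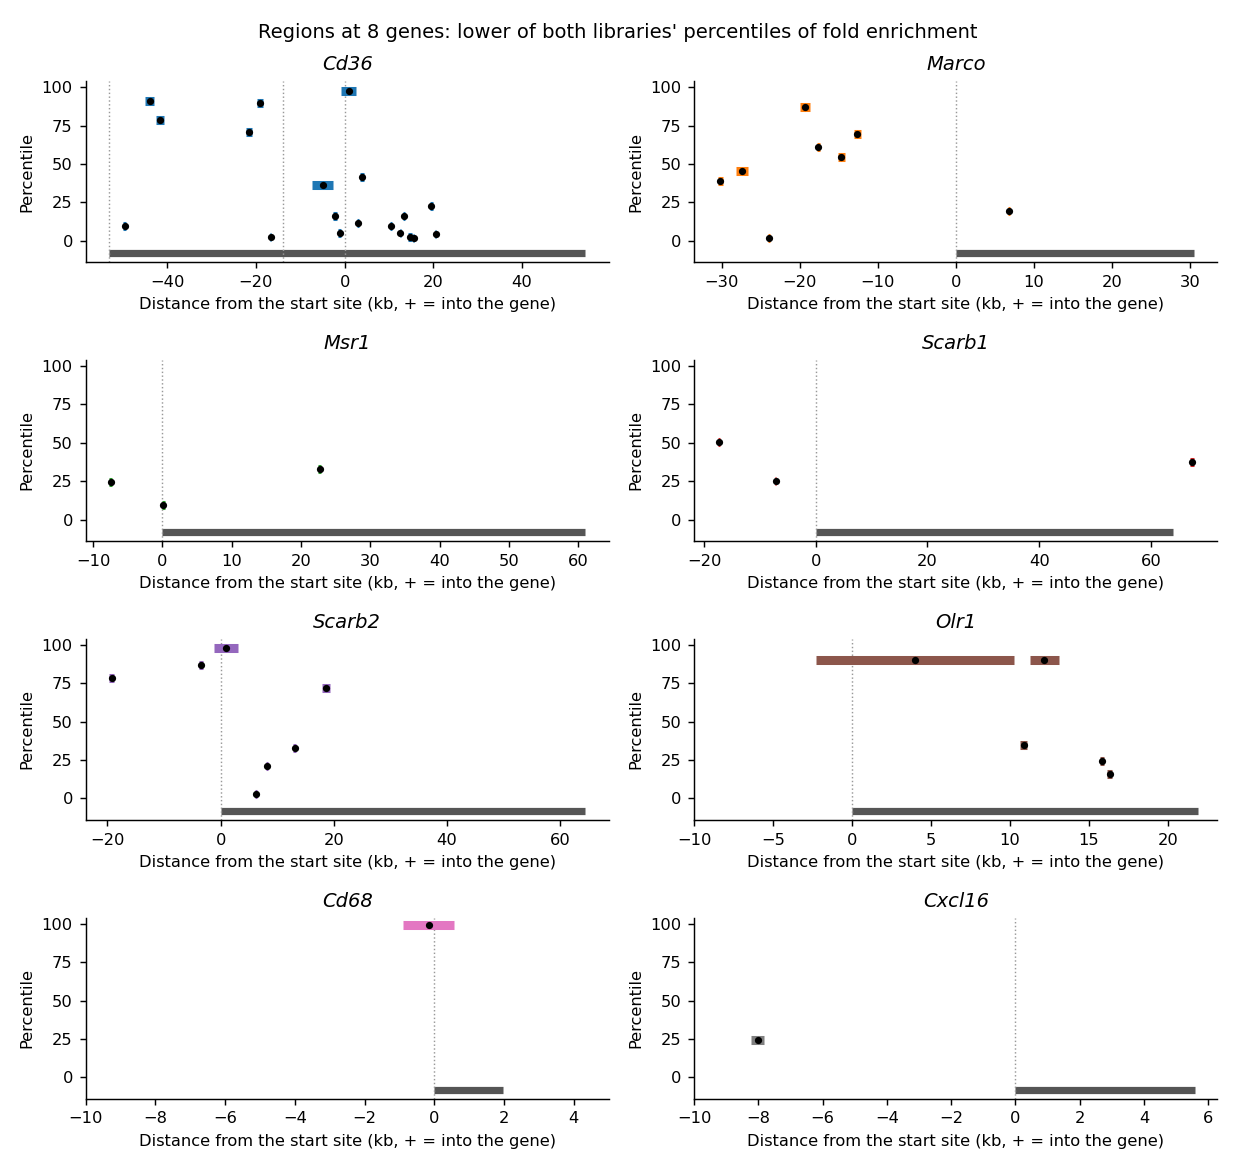
Regions along 8 genes (horizontal axis, distance from a TSS in kb, positive into the gene, on a separate scale for each gene and from the downstream TSS for Cd36), placed by the lower of both libraries' percentiles of fold enrichment (vertical axis, points) with bars for the region width, grey bars for the transcribed span and dotted lines for TSS. Cd36 regions run along the gene in introns, 7 of 8 Marco regions lie upstream, and the strongest regions of Scarb2, Olr1 and Cd68 lie over the TSS.

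Class A receptors, which share a collagen-like stem, differed from one another. Marco, a receptor of AMs for inhaled particles and bacteria (gene ID 17167, chr1:120474538-120505024, minus strand), had 8 regions, a number reached by 2.74% of all genes. In its territory of 131 kb that was 6.11 per 100 kb, a density that 9.89% of genes reached. Of the 8 regions, 7 lay upstream, in 18.4 kb of intergenic sequence of which they covered 32.7%. The strongest, region 4 (chr1:120523653-120524966), was 19.3 kb upstream of the TSS. Its folds were 13.3 and 8.15, at percentiles 92.3 and 87.1, and it ranked 1476. Region 7 followed, 12.6 kb upstream with folds of 8.59 and 7.31, then region 5, 17.6 kb upstream with 7.70 and 5.91, and region 6, 14.7 kb upstream with 7.11 and 6.78. Region 8, in intron 1 and 6.83 kb into the gene, had 5.63 and 4.29. No region reached the Marco TSS. Library 1 alone had a peak 151 bp from it (chr1:120504680-120504873, fold 5.63), while the nearest library 2 peak was 6.65 kb away. The sequence around the library 1 summit of region 4, chr1:120524273-120524473 on the plus strand, is shown because 3 different motifs lay within it. Capitals mark AGGTCA, the half-site of nuclear receptors, then TGACTCA, the site of AP-1, and then a match to the C/EBP site TTGCNNAA.

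Marco region 4 summit: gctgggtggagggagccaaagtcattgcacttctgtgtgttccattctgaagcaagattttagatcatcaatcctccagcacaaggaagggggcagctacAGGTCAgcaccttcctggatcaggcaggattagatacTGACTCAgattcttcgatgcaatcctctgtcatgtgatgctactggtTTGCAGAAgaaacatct

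Msr1 encodes SR-A, the receptor for acetylated lipoprotein (gene ID 20288, chr8:39581700-39642678, minus strand). Its 3 regions stood in a territory of 641 kb, or 0.468 per 100 kb, below the 0.768 of the genome. The best ranked, at 10003, was region 3 in exon 5 (chr8:39619733-39620200), with folds of 8.29 and 4.79. Region 2 spanned the TSS (chr8:39642361-39642752) with 3.85 and 4.79, although only the library 1 peak in it (chr8:39642397-39642752) reached the TSS, and region 1, 7.42 kb upstream, had 5.04 and 4.52. A region over the TSS was therefore present at Msr1 but weak, at percentiles 9.68 and 33.0. Scara5, a ferritin receptor (gene ID 71145, chr14:65666403-65764826, plus strand), had no peak in either library. The nearest peaks were 67.9 kb from its TSS in library 1 and 284 kb in library 2, both nearer to other genes.

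Olr1 encodes LOX-1, a C-type lectin that binds oxidized lipoprotein (gene ID 108078, chr6:129485247-129507165, minus strand). It had 5 regions, a number that 5.78% of all genes reached. In its territory of 19.9 kb that was 25.1 per 100 kb, the highest density of the 10 genes and one that 1.11% of all genes reached. The regions covered 82.6% of 18.8 kb. Region 1 (chr6:129496889-129509475) spanned the TSS and was 12587 bp wide, the 7th widest of all regions, made of 6 peaks of library 1 and 5 of library 2. Its folds were 12.5 and 13.7, at percentiles 90.4 and 98.9, and the summits of both libraries were 347 and 369 bp into the gene. Region 3 (chr6:129494071-129495912) had 12.4 and 9.54. Olr1 lies among other C-type lectin genes, and a further region inside its transcribed span (chr6:129489139-129490103, folds 5.76 and 4.24) was nearer to Clec7a, which encodes the β-glucan receptor Dectin-1. The regions also overlapped the noncoding gene Gm45969 on the same stretch, so binding at Olr1 and at Gm45969 cannot be told apart by position.

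Cd68 encodes a lysosomal glycoprotein used as a macrophage marker (gene ID 12514, chr11:69664213-69666170, minus strand). Its single region (chr11:69665597-69667065) was the strongest of all 47 by the lower of both percentiles. Its folds were 21.9 and 13.7 at percentiles 99.5 and 98.9, and its rank was 106. In library 2 alone, Scarb2 region 3 (14.6) and Cd36 region 10 (14.3) had higher folds. The Cd68 region was the only one of the 47 centred in a promoter (from 1 kb before a TSS to 100 bp after it). Its centre was 0.161 kb upstream of the TSS, with summits 75 bp apart. The territory of Cd68 was 4.89 kb, the smallest of the 10 genes, and a region over its 3′ part (chr11:69663286-69665408, folds 10.4 and 6.47) was nearer to Mpdu1. The sequence around the library 1 summit, chr11:69666258-69666458 on the plus strand and thus upstream of this minus-strand gene, is shown because its fold in library 1 was the highest of the 47. Capitals mark TGACTCA.

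Cd68 region 1 summit: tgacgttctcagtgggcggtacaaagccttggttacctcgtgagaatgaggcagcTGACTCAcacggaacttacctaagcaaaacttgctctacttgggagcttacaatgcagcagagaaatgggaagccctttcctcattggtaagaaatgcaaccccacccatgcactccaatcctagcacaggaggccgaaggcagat

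Cxcl16 encodes a transmembrane chemokine that also binds oxidized lipoprotein and phosphatidylserine (gene ID 66102, chr11:70454389-70459984, minus strand). Its only region (chr11:70467811-70468217) was 8.03 kb upstream, with folds of 7.44 and 4.52, and ranked 12067. It was nearer to Zmynd15, a protein-coding gene, once predicted transcripts were allowed, at 6.59 kb from such a start. The TSS lay in a peak of library 1 alone (chr11:70459953-70460095, fold 3.85). A stronger region (chr11:70451741-70454409, folds 11.3 and 7.03) reached only the last bases of Cxcl16, which ends at 70454389, and was nearer to Med11. Stab1 encodes stabilin-1, a receptor for acetylated lipoprotein and other ligands that is found on some tissue macrophages and sinusoidal endothelium (gene ID 192187, chr14:31139017-31168641, minus strand). Library 1 had 4 peaks at Stab1, with folds of 8.29, 5.04, 3.85 and 3.26, and library 2 had none nearer than 39.6 kb to its TSS. The strongest (chr14:31160663-31160807) was unusual for a peak of 1 library. Of the 7849 library 1 peaks with a fold of at least 8.29, 90.8% were shared with library 2 and 720 were not.

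**Figure D3:**
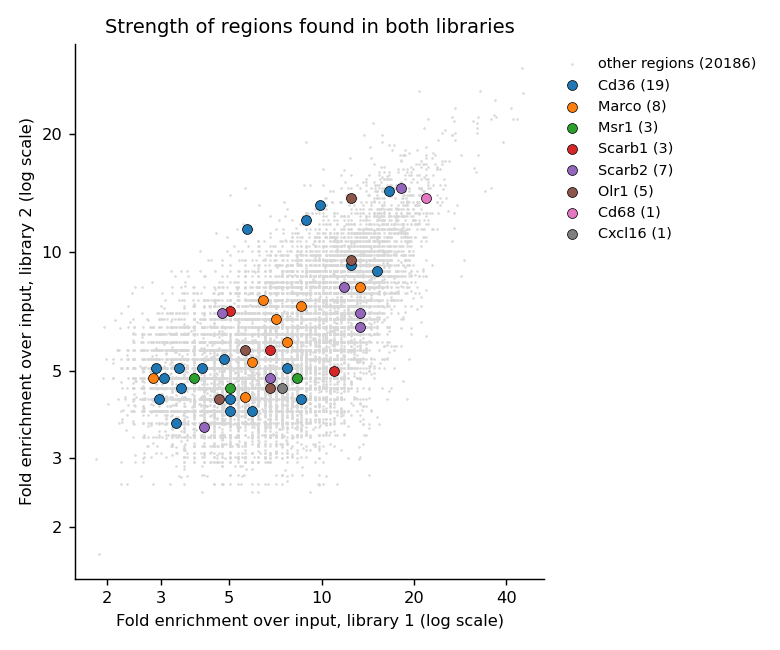
Fold enrichment over input of each region in library 1 (horizontal axis) and library 2 (vertical axis), both on log scales, for the 47 regions at scavenger receptor genes (coloured by gene, with the number of regions) and the 20186 other regions (grey). The single Cd68 region (21.9 and 13.7), Scarb2 region 3 (18.1 and 14.6) and Cd36 region 10 (16.6 and 14.3) stand at the upper right, and most Cd36 regions lie among the weaker ones.

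As a whole the 47 regions were about as strong as regions elsewhere. Their median fold was 6.81 in library 1, the same as over all regions, and 5.25 in library 2, against 5.35. At or above the 90th percentile in both libraries were 5 regions (10.6%, against 5.83% of all regions): Cd36 regions 2 and 10, Scarb2 region 3, Olr1 region 1 and the Cd68 region. Below the median in both libraries were 18 (38.3%, against 35.95%). Over the 8 genes with a region, the strongest region of each had a median percentile of 88.8 by the lower of both libraries. That ranking used the strongest of several regions for most genes and is given as a description.

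By their centres, the regions lay mostly away from promoters. A region over a TSS can be centred outside the promoter. Cd36 region 10, Msr1 region 2, Scarb2 region 3 and Olr1 region 1 spanned a TSS but were centred in introns. Promoters held 1 of 47 centres (2.13%, against 18.6% of all regions), introns 31 (66.0% against 46.9%), intergenic sequence 14 (29.8% against 31.0%) and exons 1 (2.13% against 3.54%). Centred more than 3 kb from the nearest TSS of the gene were 39 (83.0% against 63.4%), and the median distance was 10.9 kb against 8.46 kb. Olr1 region 1 counted among the 39, with its centre 3.98 kb from the TSS it spanned. Cd36 alone supplied 19 of the 31 intronic regions, and regions of 1 gene share a locus, so these shares were not tested. GC content of the 201 bp around the summit had a median of 40.3%, against 45.3%. The summits of both libraries were at most 100 bp apart in 28 of the 47 regions (59.6%, against 52.7%).

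Sequence motifs were looked for on either strand, in the 201 bp centred on the summit of the library with the higher percentile. The PPARγ-RXR element is called DR1, and was taken as 2 AGGTCA half-sites in direct repeat spaced by 1 base with at most 2 mismatches over 12 bases. It matched at 2 of 47 summits (4.26%, against 4.98% of all regions), Marco region 6 and Scarb1 region 2. A full AGGTCA half-site, which can be part of a DR1 match, was at 5 (10.6% against 15.3%), 3 at Cd36 and 2 at Marco. The half-site share was below that of all regions, which was not tested. The DR1 share was close to that of all regions. Within 250 bp of the summit the DR1 share was the higher one (10.6% against 9.58%), and in the other settings tried it was the lower one. Within 100 bp of the summit of the strongest region of each of the 8 genes with a region, no sequence met the DR1 pattern. The 2 matches were in weaker regions of Marco and Scarb1.

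Motifs of other macrophage factors were searched in the same windows. GGAAGT, the core of the site of PU.1, was at 14 summits (29.8% against 29.1% of all regions), 4 of them at Cd36 and 4 at Marco. TTGCNNAA, the site of C/EBP factors, was at 13 (27.7% against 15.2%), among them Cd36 regions 2, 3, 4 and 5 and Marco region 4. TGACTCA of AP-1 was at 5 (10.6% against 7.11%), in 1 region each of Cd36, Marco, Scarb2, Cd68 and Cxcl16. TGTGGT of RUNX was at 7 (14.9% against 19.5%). CACGTG, an E-box whose binders include, among other factors, the lysosomal regulators of the MiT/TFE family, was at 4 (8.51% against 4.25%). It was at 1 each of Cd36, Marco, Msr1 and Scarb2. The C/EBP, AP-1 and E-box patterns thus had higher shares here than over all regions and the RUNX pattern a lower one. The AP-1 and E-box shares rested on 5 and 4 regions. No test was made, since several of these regions lie in 1 locus.

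**Figure D4:**
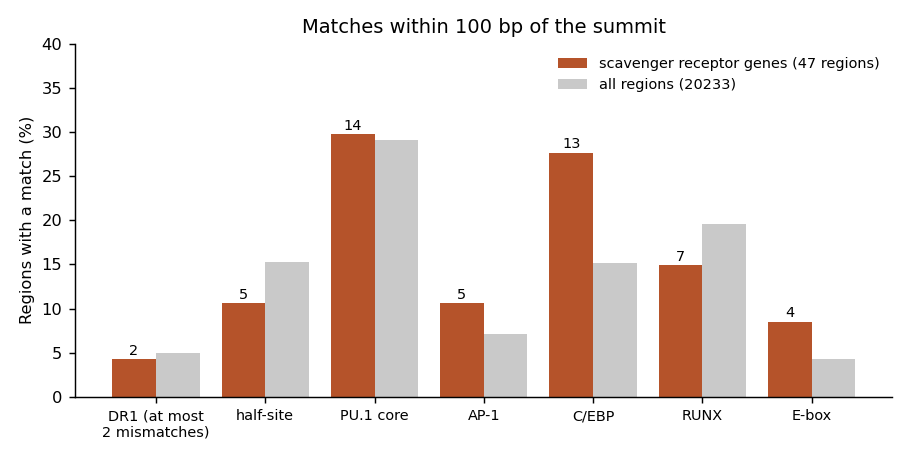
Share of regions (vertical axis, %) with a motif match within 100 bp of the summit, for the 47 regions at scavenger receptor genes (brown, with the number of regions above) and all 20233 regions (grey). The C/EBP motif is at 13 of 47 summits, and DR1 at 2.

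DR1 matches were also present away from the summits. Over the whole width of the regions, a search added after the data had been seen, there were 10 matches in 6 regions (12.8%, against 14.8% of all regions), or 1.75 per 10 kb against 2.05 over all regions. They were 3 at Marco, 3 at Olr1, 2 at Cd68, 1 at Cd36 and 1 at Scarb1. One window for each of these genes, the match in capitals with 20 bases on either side, is shown to give the sequences that come closest to the element. The Cd36 match (chr5:17835927-17835979, plus strand) was 57 bp upstream of the downstream TSS, with 2 mismatches, and was 1950 bp from the library 1 summit and 181 bp from that of library 2. The Cd68 match (chr11:69666437-69666489, plus strand, 2 mismatches) was 105 and 180 bp from the summits, the Marco match in region 6 (chr1:120519552-120519604, minus strand, 2 mismatches) 29 and 15 bp, and the Scarb1 match in region 2 (chr5:125348236-125348288, minus strand, 2 mismatches) 58 and 46 bp. The Olr1 match in region 1 (chr6:129508141-129508193, plus strand) was the only one with 1 mismatch and lay 1349 and 1371 bp from the summits, 1002 bp upstream of the TSS.

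Cd36 region 10: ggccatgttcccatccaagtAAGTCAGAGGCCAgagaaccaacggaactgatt

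Cd68 region 1: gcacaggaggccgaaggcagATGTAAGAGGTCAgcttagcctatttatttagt

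Marco region 6: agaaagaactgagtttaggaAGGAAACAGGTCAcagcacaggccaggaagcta

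Scarb1 region 2: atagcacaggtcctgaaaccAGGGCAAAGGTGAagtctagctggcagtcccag

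Olr1 region 1: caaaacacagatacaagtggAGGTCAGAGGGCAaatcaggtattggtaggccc

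A RefSeq promoter (GRCm38.p6, 250 bases before to 50 after a start) was at hand for 6 of the 10 genes, Cd36, Cd68, Marco, Olr1, Scarb2 and Stab1. For Cd36 it was that of the downstream TSS, and the promoters of its other TSS are not covered here. A DR1 match was in this Cd36 promoter and in none of the other 5, against 3.86% of 32851 promoters. AGGTCA was in those of Cd36 and Olr1 (16.3% of all promoters), TGACTCA in those of Cd68 and Olr1 (5.20%), and GGAAGT in those of Cd36 and Cd68 (23.8%). TTGCNNAA was in that of Cd68 (10.8%). The promoters of Marco, Scarb2 and Stab1 held none of the motifs, which include TGTGGT (16.8%) and CACGTG (7.15%). The Scarb2 promoter thus lay inside a strongly enriched region without a match in these 300 bases. A match is no evidence of a site in use.

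The number of regions depended on how a region was defined. Asking for a reciprocal overlap of 50% gave 23 regions in place of 47, while the regions of all genes went from 20233 to 10420. A fold of at least 5 in both libraries gave 24, with 10719 over all genes. Cd36 had the highest count of the 10 genes in every definition tried, from 7 with that fold to 53 in library 1 alone. Olr1 had between 4 and 13, and Cd68 between 1 and 3. Msr1 had none with a fold of at least 5 or a reciprocal overlap of 50%, and Cxcl16 none with that fold or when noncoding genes and predicted transcripts were allowed. When regions were given to the genes whose transcribed span or 3 kb upstream they overlapped, Marco went from 8 to 1 and Scarb1 from 3 to 0, since their regions lay farther upstream or past the gene. Scara5 had 0 in every definition, and Stab1 had regions only from library 1 alone.

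**Figure D5:**
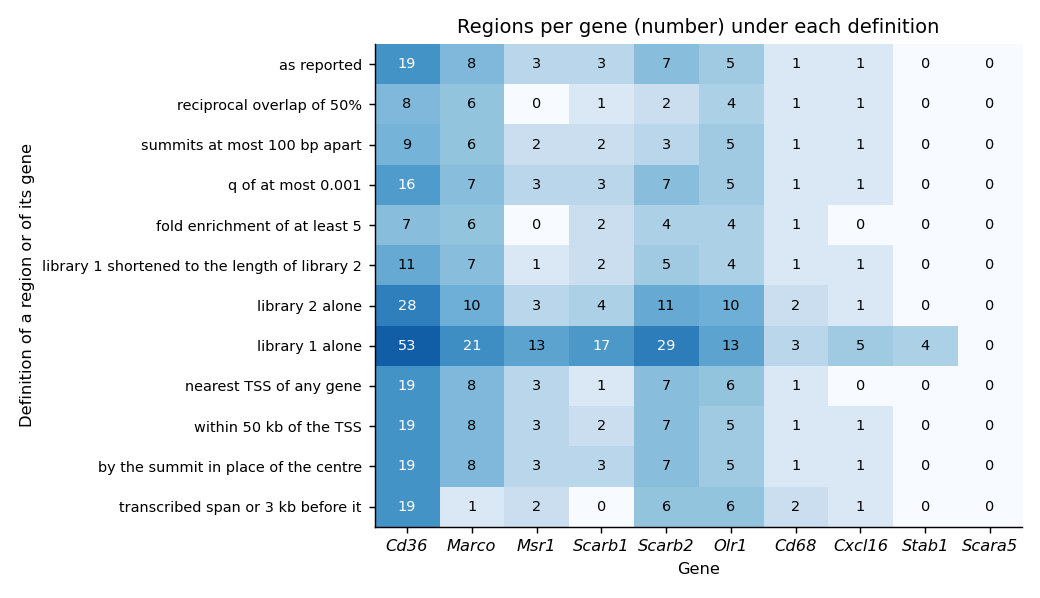
Number of regions at each gene (columns, numbers in the cells, darker for more) under each definition of a region or of its gene (rows). Cd36 has the highest number in all 12 rows, and Scara5 has 0 in all.

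Other scavenger receptor genes and the partners of CD36 were counted from lists. Of 24 other scavenger receptor genes, 10 had a region (41.7%, against 31.6% of all genes), with a median of 0. By their best region they were led by Ly75, encoding the endocytic lectin DEC-205 (9 regions, best folds 18.7 and 18.2), and the mannose receptor gene Mrc1 (15, best 14.4 and 11.8), with the endocytic receptor gene Lrp1 at 16 (best 16.3 and 9.40). Clec7a had 9 (best 13.4 and 13.4), Cd14, for the lipopolysaccharide co-receptor, had 4 (best 17.5 and 9.26), and Cd163, for the haemoglobin scavenger receptor, had 1 (12.4 and 8.98). The 14 without a region were the class A relative Scara3, the other stabilin gene Stab2, Ager, Asgr1, Cd163l1, Cd5l, Dmbt1, Megf10, Mrc2, Scarf1, Scarf2, Ssc5d, Timd4 and Vldlr. Of these 14, 9 had no peak in either library and 5 had peaks of library 1 only.

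Of 22 genes for signalling and partner proteins of CD36, 18 had a region (81.8%, against 31.6% of all genes), with a median of 3 against 0 over all genes. The list was chosen with earlier results of these data known, so this share is a description only. The tetraspanin gene Cd9 had 33 (best folds 25.5 and 13.7), the kinase genes Syk and Lyn had 21 (18.4 and 13.4) and 14 (16.3 and 10.1), and the integrin gene Itgb2 had 7 (14.8 and 8.98). Tlr2 and Tlr6, whose products form a heterodimer that senses lipoproteins together with CD36, had 12 (17.3 and 14.6) and 2 (14.2 and 9.82). The kinase genes Src and Yes1, the caveolin gene Cav1 and the palmitoyltransferase gene Zdhhc4 had none. Whether these genes lie in chromatin that is open in AMs was not measured here.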

How the data were processed

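PPARγ HT-ChIPmentation of sorted AMs was analysed from the peak lists of 2 ChIP libraries. According to processing notes by the submitters, MACS3, Bowtie2 and SAMtools were used with mm10 after bcl2fastq 2.20.0.422, cutadapt and CASAVA, and per the study's methods peaks were called for each library against input at a q of 0.05. The deposited lists give, for each peak, a score (10 times the −log10 of the q-value, without decimals), the fold enrichment over input (a linear ratio), −log10 of the p-value, −log10 of the q-value and the summit position. The largest q was 0.0497 in library 1 and 0.0464 in library 2. The lists give no counts, and the sequencing quality data that the study provides were not used here. Depth was therefore not compared, and a shallow library may miss weak peaks.

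From these lists, peaks of both libraries were merged and assigned to curated RefSeq protein-coding TSS of GRCm38.p6 with Python 3.11.15, numpy 2.4.6 and pandas 2.3.3, and the steps were tested on simulated data. Peaks on chromosome 1 ended at 195241800 or before, within its 195471971 bp. Fold enrichment was compared within a library by percentile only. No significance test was made, since 2 libraries form 1 group. The text names all 10 genes, with the strongest region of each and all regions within 3 kb of a TSS, up to 6 genes of each list with the best ranked regions and those without a region, and neighbours that take a region in a gene's span. All 46 list entries matched a gene. The genes and lists were chosen with earlier results of these data known. Alternatives covered overlap, thresholds, each library alone, gene assignment, motif windows, promoter definition and ranking.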

Additional observations from a re-analysis of the deposited data

How the results depend on the processing

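The 47 regions of the 10 genes became 23 with a reciprocal overlap of 50%, 29 with summits at most 100 bp apart and 24 with a fold enrichment of at least 5, and 69 to 158 with either library left out. Shortening library 1 to the length of library 2 gave 32, a q of at most 0.001 gave 43, and assignment by transcribed span gave 37. Over all genes, the 20233 regions became 10420 with the reciprocal overlap, 11414 with the summit limit and 10719 with the fold limit. They became 28535 or 83787 with a library left out, 15315 with library 1 shortened and 18091 with that q. Between 6 and 9 of the 10 genes had a region across these definitions, the 9 in library 1 alone, where 60.6% of all genes had one, and the 6 with a fold of at least 5, where 22.7% had one, against 31.6% as reported. DR1 matches, at 2 summits as reported, were at 5 within 250 bp, at 0 with at most 1 mismatch and at 9 with at most 3. They were in 6 regions when the whole width was searched, an alternative chosen after seeing the data. Shares over all regions moved alike, to 9.58%, 0.939% and 22.7% for the first 3. Promoters held 4 regions when 1 kb on either side of a TSS was counted and 2 by the summit, against 1. The share over all regions, 18.6%, belongs to the definition used above, so the counts of 4 and 2 have no such share beside them. The median percentile of the strongest regions, 88.8, was 89.999 by −log10 q and 92.2 by the mean of both percentiles. No paired analysis was possible because the shared replicate numbers pair each ChIP library with an input library and the results come from no test. The cause of these changes was not tested.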
